A study of Rattus norvegicus with 6 samples.

Results

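The 124 genes described here encode cytosolic ribosomal proteins, translation initiation factors and translation elongation factors, with some of their regulators, and were measured in rat liver on 6 diets. The rule that picks them uses the gene symbol and no measured value: it takes probe sets annotated with exactly 1 gene symbol of the Rpl, Rps, Rplp, Rpsa, Eif1 to Eif6 and Eef1 to Eef2 families. Eif2ak2 was left out. The 124 are part of 14506 named genes on the array, and they hold 313 of its 29214 probe sets. There were 70 ribosomal proteins (42 of the large subunit, 26 of the small subunit and the 2 paralogues Rpl22l1 and Rpl37l1), 43 initiation factors with their regulators, and 11 elongation factors with theirs. Where a gene had several probe sets, as 56 of the 124 did, the one with the highest mean was used. All 124 passed the filter on low values.

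The animals were 30 adult male Wistar rats, all adapted to the normal protein diet for 10 days and then kept for 5 weeks on 1 of 6 diets. The normal protein diets were a low fat diet (NP), a high sucrose, low fat diet (NP-HS) and a high sucrose, high fat diet (NP-HS-HF). The high protein diets HP, HP-HS and HP-HS-HF had the same 3 backgrounds. Below, low fat names the background of NP and HP, although NP-HS and HP-HS were low in fat too. The rats were killed 2 h after a calibrated meal, so all livers were in the fed state, and each array received a pool of liver RNA from the 5 rats on that diet. A pool hides the spread between rats, and no diet had a second pool. The age of the rats is not given in the sources used here.

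Ribosomes are built from ribosomal RNA and one copy of most ribosomal proteins. Initiation factors bring the initiator tRNA, the small subunit and the capped mRNA together, and elongation factors carry aminoacyl-tRNA to the ribosome and move it along the message. In liver, amino acids and insulin act on this machinery through the kinase complex mTORC1 and through phosphorylation of eIF2, largely by changing protein activity and the translation of existing mRNAs. Many ribosomal protein mRNAs begin with a 5′ terminal oligopyrimidine tract, a C followed by a run of pyrimidines, through which mTORC1 controls their translation. An array measures the mRNA level and not its translation.

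That start form is shown first, because many ribosomal protein mRNAs carry it. The members were picked by gene symbol and not by this form. Promoters from RefSeq (build GRCr8) were matched for 104 of the 124 genes. A C at the annotated gene start followed by at least 4 pyrimidines (C or T), read on the transcribed strand only, was present in 22 of 57 ribosomal protein promoters (38.6%). It was present in 1 of 37 promoters of initiation factors (2.7%, Eif2a), in 0 of 10 of elongation factors, and in 722 of all 27457 promoters (2.63%). A looser search let the C and its 4 pyrimidines lie anywhere within the stretch from 10 bases before to 10 bases after the start. It gave 41 of 57 ribosomal proteins (71.9%), 10 of 37 initiation factors (27.0%), 5 of 10 elongation factors and 24.7% of all promoters. The windows below hold 10 bases before the start and 20 bases from it, 5′ to 3′, for the genes whose levels are described most closely, with the C and its pyrimidine run in capitals where they lie at the start. They lie at chr7:1643385-1643414 (minus strand) for Rps26, chr2:177964587-177964616 (minus) for Rps27, chr20:6390523-6390552 (plus) for Rpl10a, chr1:205975911-205975940 (plus) for Rplp2, chr1:181860265-181860294 (minus) for Rps15a and chr11:91275304-91275333 (minus) for Eif4a2.
Rps26: ccgccgggtcCTCTTTCgagtcttggctcc
Rps27: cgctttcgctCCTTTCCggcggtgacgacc
Rpl10a: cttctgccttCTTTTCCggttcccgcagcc
Rplp2: cgccgccggacgccgccgaggtcgcacgcg
Rps15a: ttttctttccacagtcaccatggtgcgaat
Eif4a2: ttcagtcgggcgctgagtgggttttcggat
Rps26, Rps27 and Rpl10a have the form at the annotated start, Rps15a has it only in the looser search, and Rplp2 and Eif4a2 have it in neither. An annotated start can lie some bases from the start used in liver.

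The 124 genes differed little between diets. The widest range over the 6 arrays was that of Rps27, at 0.53 on the log2 scale. No member differed by 1.5-fold or more between any of the 9 pairs of arrays that differ in protein level or in background. Of all 20450 probe sets tested, 1.38%, 1.39% and 1.5% differed that much between high and normal protein on low fat, on HS and on HS-HF. The shares were 0.866% for NP-HS minus NP, 0.89% for HP-HS minus HP, 0.934% for NP-HS-HF minus NP-HS, 1.27% for HP-HS-HF minus HP-HS, 1.16% for NP-HS-HF minus NP and 1.19% for HP-HS-HF minus HP.

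A lower fold of 1.2, chosen after the values were seen, was reached by few members in each pair. For HP minus NP it was reached by 2 of 124, Rps27 (higher) and Rps20 (lower), against 12.4% of all probe sets. For HP-HS minus NP-HS it was reached by 6 (11.9% of all probe sets): Eef1e1, Eif2b2, Rplp2 and Rps28 were higher, and Eif2s2 and Eif3i lower. For HP-HS-HF minus NP-HS-HF it was reached by 4, the ribosomal proteins Rpl29, Rplp2, Rps15a and Rps27, all higher (14.6%). Sucrose on normal protein, NP-HS minus NP, had 7 (9.54%), with Rps27 higher and Eef1e1, Eif1a, Rplp2, Rps12, Rps20 and Rps25 lower. On high protein, HP-HS minus HP, there were 3 (9.03%), with Rps28 higher and Eif2s2 and Rpl36 lower. Fat on normal protein, NP-HS-HF minus NP-HS, had 2 (9.71%), Eif2b2 higher and Eef1akmt2 lower. On high protein, HP-HS-HF minus HP-HS, there were 7 (11.3%), with Eif2s2, Rpl23, Rpl36, Rps10 and Rps24 higher and Eif2s1 and Eif4e3 lower. NP-HS-HF minus NP had 1, Eif1a, lower (11.7%), and HP-HS-HF minus HP had 1, Rps15a, higher (11.9%). In each pair the members' share was below that of the whole array.

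Diet effects came from a limma model of the 6 arrays in which protein level and background add up, and p-values were adjusted by Benjamini-Hochberg over all probe sets tested. With 1 array per diet they measure only the spread between these arrays. At an adjusted p under 0.05, 0 of the 124 genes passed for protein (0.044% of all probe sets did), and 0 passed for sucrose, for fat added to sucrose, or for sucrose and fat together (0.0% of all probe sets for each of these 3). At an unadjusted p under 0.05 the members' counts were 3 for protein, 0 for sucrose, 6 for fat, and 1 for sucrose and fat together, against 8.71%, 3.02%, 4.95% and 5.18% of all probe sets. The 3 for protein, Rps27, Rps26 and Eif4a2, were higher, as were 4.68% of all probe sets. The 6 for fat were 3 higher (2.5% of all probe sets) and 3 lower (2.45%), and the 1 for sucrose and fat together was lower (2.61%). An ordinary t statistic from the same model, adjusted in the same way, called 0 of 124 for each effect. It called 0 of all 20450 probe sets too, so this count says nothing particular about the members.

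The precision behind these counts was as follows. For the protein effect the median 95% confidence interval of a member reached 0.17 on the log2 scale to either side, or 1.12-fold. The median absolute protein difference of the members was 0.041, against 0.064 over all probe sets, and their median residual SD was 0.059 against 0.086. In pooled liver RNA, fewer cells of a type and less RNA per cell cannot be told apart.

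**Figure D1:**
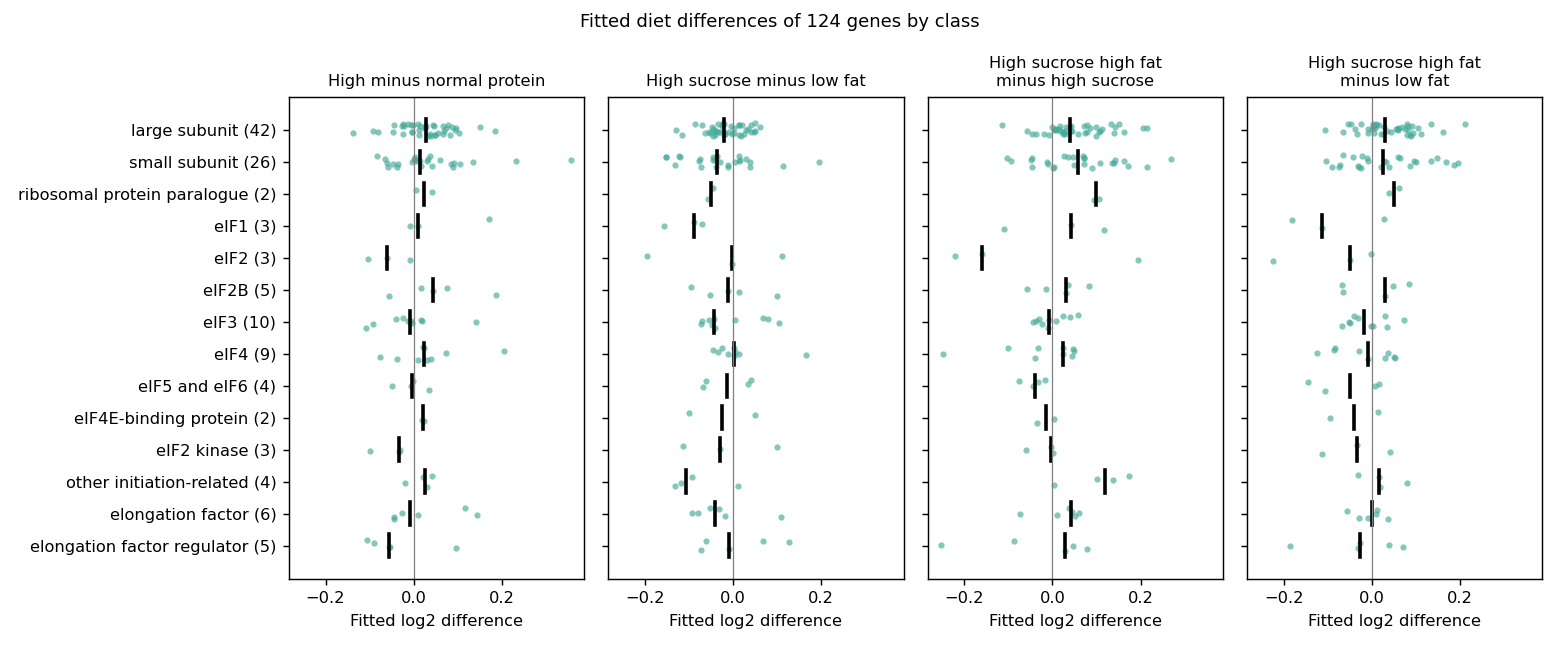
Fitted log2 differences of the 124 genes for the diet effects, by class of gene, with the number of genes of a class in parentheses; each point is 1 gene and each black bar a class median. Most points lie close to 0, Rps27 at 0.36 is the farthest to the right for protein, and no point passed the adjusted test.

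Ribosomal proteins, the structural components of the ribosome, had a median protein difference (high minus normal) of 0.026 on the log2 scale, with 48 of 70 above 0 (68.6%, against 49.4% of all probe sets). The large subunit had 28 of 42 above 0 and the small subunit 18 of 26. This median was not alike in the 3 backgrounds. High minus normal protein gave -0.024 on low fat (31 genes higher and 39 lower), 0.035 for the HS pair (41 and 29) and 0.083 for the HS-HF pair (54 and 16). In that last pair 77.1% of ribosomal proteins were higher, against 51.4% of all probe sets. Without either of the 2 high fat arrays the fitted median over the 70 genes was -0.0004, so the pooled value rests on the high fat pair. A difference between backgrounds leaves no residual degrees of freedom here and was not tested.

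The array on which ribosomal proteins lay highest was HP-HS-HF. It is 1 pool on 1 array, picked out after the values were seen, and the genes on it are not replicates of the diet. Set against each gene's own mean over the 6 arrays, ribosomal proteins had a median of 0.076 on HP-HS-HF, and 0.002, -0.035, -0.015, -0.016 and -0.007 on NP, NP-HS, NP-HS-HF, HP and HP-HS. The level was highest on HP-HS-HF for 33 of 70 ribosomal proteins (47.1%), where this array was the highest for 19.6% of all probe sets. It was lowest there for 3 of 70, against 19.9% of all probe sets. By subunit the count on HP-HS-HF was 23 of 42 for the large and 9 of 26 for the small subunit. The small subunit was highest on NP just as often, for 9 of 26 genes, and the large subunit for 5 of 42. With each array centred on its median, 27 of 70 ribosomal proteins were highest on HP-HS-HF, against 15.6% of all probe sets. For the small subunit the counts were then 8 of 26 on HP-HS-HF and 9 of 26 on NP. Of the initiation factors, 7 of 43 were highest on HP-HS-HF, and their median there was 0.004. The lowest levels of ribosomal proteins lay most often on NP-HS, in 20 of 70 genes, against 15.7% of all probe sets.

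**Figure D2:**
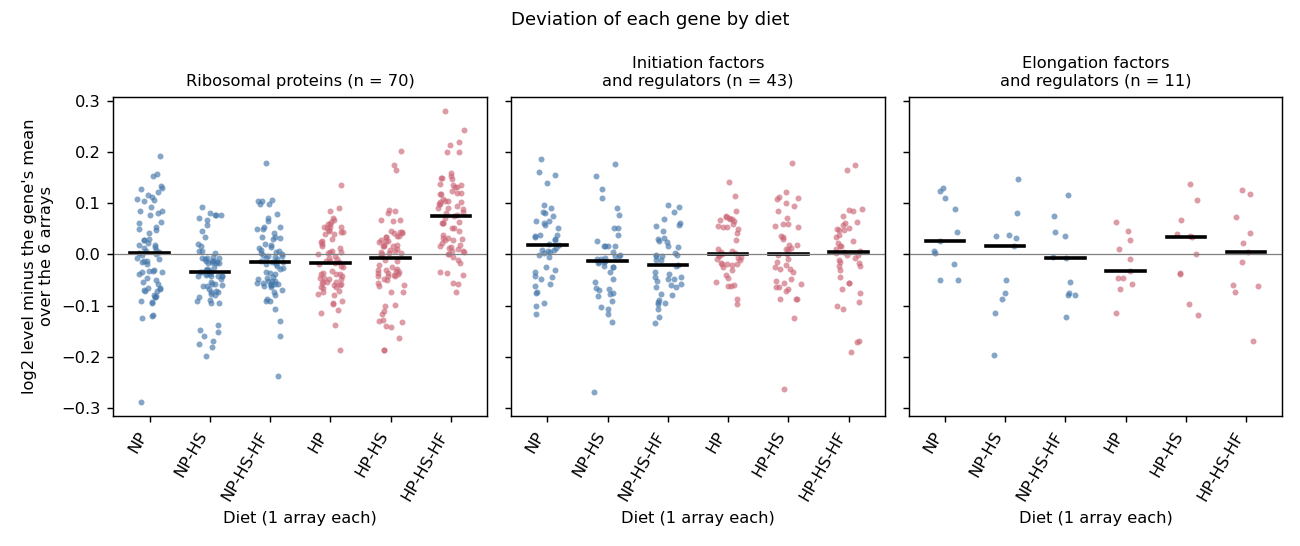
Log2 level of each gene minus its own mean over the 6 arrays, by diet, for ribosomal proteins, initiation factors and elongation factors; each point is 1 gene and each black bar a median. Ribosomal proteins sit higher on HP-HS-HF, with a median of 0.076, than on the other 5 arrays, where their medians lie between -0.035 and 0.002. Each diet is 1 pool on 1 array.

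The start form printed above can be set beside these values. On HP-HS-HF the 22 genes with it had a median of 0.076 above their own means and the 35 without it 0.098. For protein the medians were 0.026 and 0.028. The split follows the annotated start, and 41 of the 57 have the form in the looser search. It therefore cannot tell whether the tract matters for these levels.

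Markers of other liver cells moved with the same array, and their part in the result was not tested. On HP-HS-HF, bile duct markers had a median deviation of 0.17 with 3 of 5 at their highest, and stellate cell and fibroblast markers 0.076 with 4 of 8. Hepatocyte markers had -0.034 with 1 of 8 at its highest. Markers of macrophages, endothelium, lymphocytes and neutrophils, red cells and exocrine pancreas had medians between 0.0025 and 0.042 there. The summed level of the bile duct markers, relative to its mean over the 6 arrays, was 0.900 to 0.996 on the normal protein arrays and 1.00 to 1.10 on the high protein arrays. All 10 macrophage markers were above 0 for protein, with a median of 0.21. Of these, 8 had a limma unadjusted p under 0.05, where 4.68% of all probe sets were higher at such a p. The summed level of the macrophage markers was 0.883 to 0.963 on normal protein and 1.00 to 1.15 on high protein. The macrophage markers were highest on HP-HS, at 1.15, and at 1.00 on HP-HS-HF. Hepatocyte markers, at 0.983 to 1.01 on all 6 arrays, were 8 of 8 above the filter on low values, so the defining markers of the labelled tissue were present.

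Among the small subunit proteins, Rps26, which lines the mRNA exit of the ribosome, read 10.80, 10.74 and 10.88 on NP, NP-HS and NP-HS-HF and 11.01, 10.99 and 11.12 on HP, HP-HS and HP-HS-HF. All 3 high protein arrays were above all 3 normal protein arrays, and the levels did not overlap. The fitted protein difference was 0.23 ± 0.064 (SE), or 1.18-fold, with a limma unadjusted p of 0.00951 and an adjusted p of 0.379. It came out between 0.23 and 0.25 without any 1 array. Each of the 6 probe sets of Rps26 was higher on the high protein array in every background, by 0.14 to 0.21 on low fat, 0.19 to 0.26 on HS and 0.16 to 0.24 on HS-HF. Probe sets of one ribosomal protein share sequence with its processed copies elsewhere in the genome and are not independent measurements.

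Rps27, a zinc-binding small subunit protein, read 5.16, 5.43 and 5.21 on NP, NP-HS and NP-HS-HF and 5.53, 5.65 and 5.69 on HP, HP-HS and HP-HS-HF. The 2 sets of arrays did not overlap, and the NP value lay at the level of the filter, 5.14. Rps27 had 1 probe set, with a mean of 5.44, well below those of most ribosomal proteins. Its fitted protein difference of 0.36 ± 0.077, or 1.28-fold, had the lowest adjusted p of the members, 0.252 by limma.

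The ribosomal proteins Rpl10a, Rpl41, Rps2 and Rps16 also had all 3 high protein arrays above all 3 normal ones, with fitted differences of 0.067, 0.083, 0.089 and 0.084. Rpl15 had all 3 below, with a fitted difference of -0.081, on 1 probe set whose mean of 6.07 was also well below those of most ribosomal proteins. Over all 124 members, 12 were above in this way (9.68%, against 7.35% of all probe sets) and 5 were below (4.03%, against 7.58%). The share above is near that of the whole array.

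**Figure D3:**
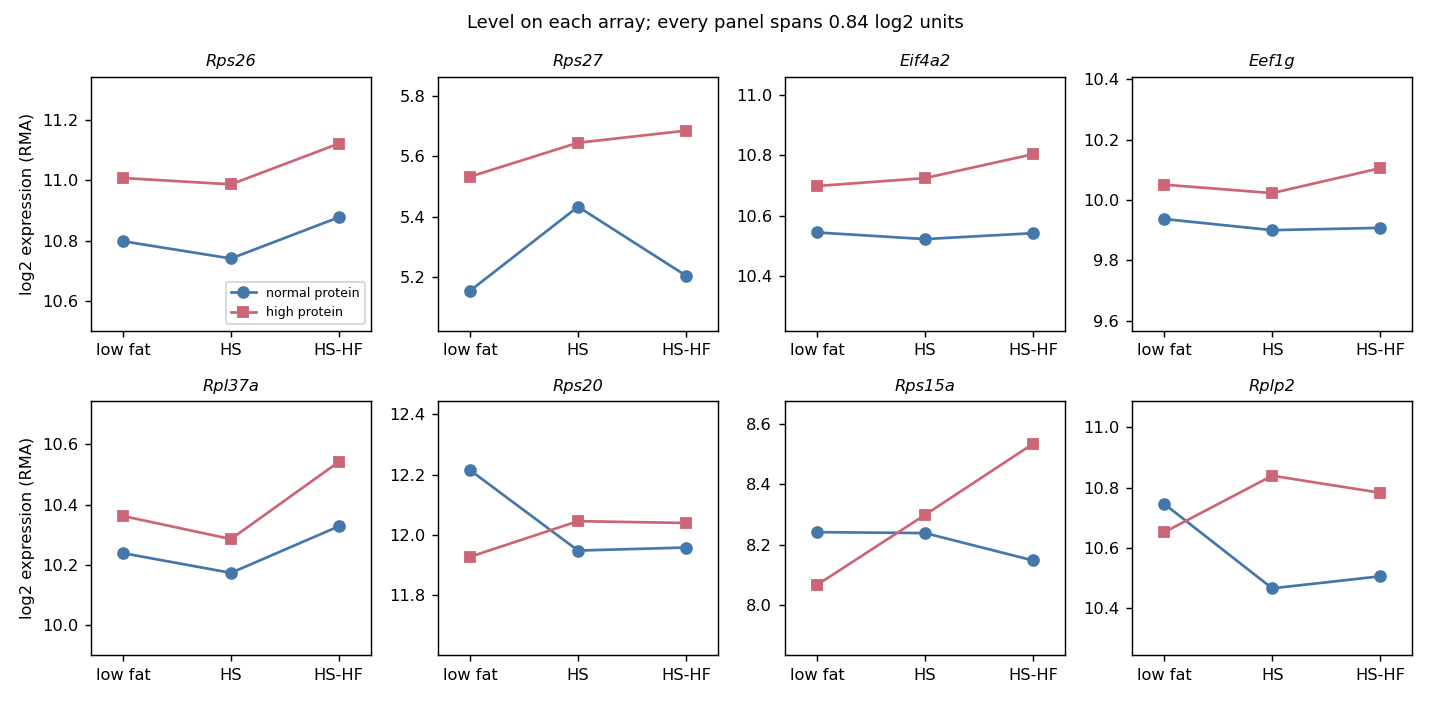
Log2 level of 8 genes on each array, with the 3 backgrounds on the horizontal axis and the 2 protein levels as separate lines; each point is 1 array and no error bar is possible with 1 array per diet. For Rps26 the high protein line lies above the normal protein line in each background, at 10.99 to 11.12 against 10.74 to 10.88.

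Other ribosomal proteins differed by background in the sign of their protein difference. Rps20, a small subunit protein of the head, read 12.21 on NP, and 11.95, 11.96, 11.93, 12.05 and 12.04 on NP-HS, NP-HS-HF, HP, HP-HS and HP-HS-HF. It was thus highest on NP, and its 8 probe sets were all lower on HP than on NP, with differences of -0.37 to -0.29, and all higher on high protein in the other 2 backgrounds. Rps15a, of the small subunit, read 8.24, 8.24 and 8.15 on the normal protein diets and 8.07, 8.30 and 8.53 on the high protein diets. Its 6 probe sets were higher on HP-HS-HF than on NP-HS-HF by 0.33 to 0.55. Rplp2, a protein of the ribosomal stalk that binds elongation factors, read 10.75, 10.47 and 10.51 on the normal protein diets and 10.65, 10.84 and 10.78 on the high protein diets. Its 3 probe sets were lower on HP than on NP and higher on HP-HS than on NP-HS, by 0.27 to 0.37. These are differences between single arrays, with no replicate check. Rplp2 had a fitted protein difference of 0.19 ± 0.10, with an adjusted p of 0.701 by limma. That difference was 0.092 without the NP-HS or the HP-HS array and 0.33 without the NP or the HP array.

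**Figure D4:**
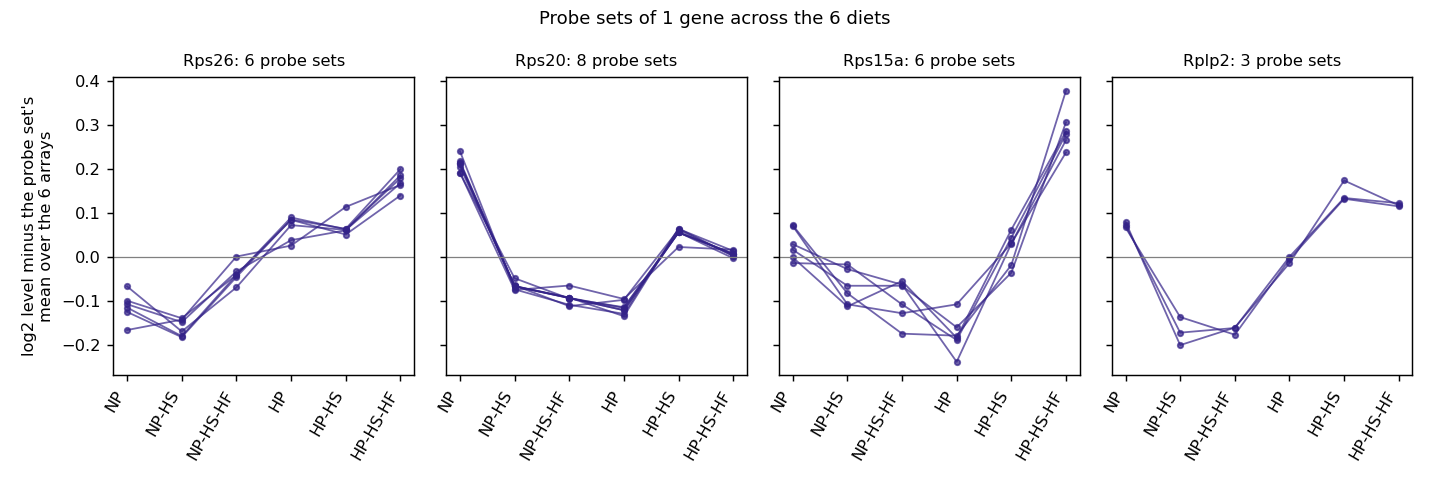
Log2 level of each probe set minus its own mean over the 6 arrays, by diet, for Rps26, Rps20, Rps15a and Rplp2; each line is 1 probe set, drawn only to join its values. The 8 lines of Rps20 run together with their peak on NP, and the 6 lines of Rps26 lie higher on the high protein arrays than on the normal protein array of the same background.

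Over the 56 genes with several probe sets, 43 had all of their probe sets on one side of 0 for HP minus NP, 45 for HP-HS minus NP-HS and 47 for HP-HS-HF minus NP-HS-HF. Rpsa, the laminin receptor and small subunit protein, had 2 probe sets that disagreed on low fat, at -0.12 and 0.17. Among the remaining large subunit proteins, Rpl37a, which read 10.24, 10.17 and 10.33 on the normal protein diets and 10.36, 10.29 and 10.54 on the high protein diets, had a protein difference of 0.15 ± 0.066. Rpl7 had the lowest, -0.14 ± 0.072, reading 10.59, 10.61 and 10.61 on normal protein and 10.40, 10.40 and 10.60 on high protein. Rps6, the substrate of the S6 kinases below mTORC1, had a difference of 0.0044 with a 95% interval of -0.15 to 0.16.

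Initiation factors had a median protein difference of 0.009, with 22 of 43 above 0. The helicase pair of the cap-binding complex eIF4F is Eif4a1 and Eif4a2. Eif4a2 read 10.54, 10.52 and 10.54 on the normal protein diets and 10.70, 10.72 and 10.80 on the high protein diets, so that its 2 sets of arrays did not overlap. Its fitted difference was 0.21 ± 0.066, or 1.15-fold, with an unadjusted p of 0.0187 and an adjusted p of 0.457 by limma. Eif4a1 had 0.073 ± 0.068. The cap-binding protein Eif4e had 0.031, with a 95% interval of -0.14 to 0.21, and read 9.53, 9.42 and 9.29 on normal protein and 9.43, 9.49 and 9.41 on high protein. Eif4g2, a scaffold related to eIF4G that does not bind eIF4E, was lower on all 3 high protein arrays, with a fitted difference of -0.075. Of the 9 eIF4 members, 7 were above 0 (49.4% of all probe sets were) and 1, Eif4a2, had an unadjusted p under 0.05 (8.71% of all probe sets had).

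The eIF2 complex carries the initiator tRNA, and eIF2B recharges it with GTP. All 3 eIF2 subunits were below 0 for protein, at -0.0087 for Eif2s1, -0.10 for Eif2s2 and -0.062 for Eif2s3. Eif2b2, the beta subunit of eIF2B, read 7.47, 7.23 and 7.51 on normal protein and 7.54, 7.67 and 7.56 on high protein. It was higher by 0.45 on HP-HS than on NP-HS, but by 0.067 and 0.047 in the other 2 backgrounds, and its fitted difference was 0.19 ± 0.097. Without the NP-HS array the fitted difference was 0.057. The other 4 eIF2B subunits lay between -0.055 and 0.075. Of the 10 eIF3 subunits, which scaffold the small subunit, 3 were above 0 and 7 below. Eif3a, the largest subunit, was above on all 3 high protein arrays (0.14 ± 0.071, and 0.091 without the NP-HS or the HP-HS array), and Eif3e and Eif3h were below on all 3, at -0.11 and -0.092. Eif1b, close to the scanning factor eIF1, had 0.17 ± 0.076, with differences of 0.24 for HP minus NP, 0.25 for HP-HS-HF minus NP-HS-HF and 0.02 for HP-HS minus NP-HS.

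The regulators that pass nutrient signals to translation showed small differences. The eIF4E-binding proteins keep eIF4E from binding eIF4G until mTORC1 phosphorylates them. Their protein differences were 0.023 (95% interval -0.13 to 0.18) for Eif4ebp1 and 0.018 (-0.18 to 0.22) for Eif4ebp2. Eif4ebp1 read 8.91, 8.81 and 8.78 on normal protein and 8.91, 8.81 and 8.85 on high protein, and the 2 sets overlapped. Of the kinases that phosphorylate eIF2, Eif2ak1, which senses heme, had -0.098, Eif2ak3, of the unfolded protein response, -0.033 and Eif2ak4, which senses uncharged tRNA, -0.030. Eif2ak4 had a range of only 0.084 over the 6 arrays. All of these intervals include 0, and a p that misses the threshold does not show that the levels were alike.

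Elongation factors and their regulators had a median protein difference of -0.044, with 4 of 11 above 0. It was between -0.0236 and -0.022 with any 1 array left out. By background the median was -0.053 for HP minus NP (3 of 11 above 0), 0.012 for HP-HS minus NP-HS and 0.0094 for HP-HS-HF minus NP-HS-HF (6 of 11 in both). Eef1a1, which delivers aminoacyl-tRNA to the ribosome, read 13.10, 13.09 and 13.07 on normal protein and 13.07, 13.04 and 13.08 on high protein, a range of 0.063 over the 6 arrays. Eef2, the translocase, had -0.045 (-0.21 to 0.12) and its inhibitory kinase Eef2k -0.056 (-0.26 to 0.15). The exchange complex that reloads eEF1A with GTP includes Eef1b2, Eef1d and Eef1g. Eef1g read 9.94, 9.90 and 9.91 on normal protein and 10.05, 10.02 and 10.11 on high protein, without overlap, and Eef1b2 read 8.44, 8.38 and 8.38 against 8.50, 8.46 and 8.58, also without overlap. Their fitted differences were 0.14 ± 0.065 and 0.12 ± 0.068, with adjusted p of 0.621 and 0.727 by limma. Eef1d had 0.01.

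Fat added to sucrose gave ribosomal proteins a median difference of 0.045, with 56 of 70 above 0 (80.0%, against 48.9% of all probe sets). Within each protein level the median was 0.018 for NP-HS-HF minus NP-HS (44 genes above 0 and 26 below) and 0.080 for HP-HS-HF minus HP-HS (56 above and 14 below). Without the HP-HS-HF array the fitted median was 0.0095. Markers of other liver cells moved with fat too, and their part in the result was not tested. Macrophage markers had a median fat difference of -0.19, with 9 of 10 below 0 and 4 of them at a limma unadjusted p under 0.05 (2.45% of all probe sets were lower at such a p). Their summed level relative to its mean was 0.963 and 1.15 on the HS arrays and 0.883 and 1.00 on the HS-HF arrays. Stellate cell and fibroblast markers had a median of 0.037, with 6 of 8 above 0 and 2 of them at such a p (2.5% of all probe sets were higher at it). Their summed levels were 0.964 and 0.998 on HS and 1.06 and 1.08 on HS-HF. Of the 6 members with an unadjusted p under 0.05, the ribosomal proteins Rps24, Rps21 and Rpl37a were above 0, and Eif2s1, Eif4e3 and the eEF1A lysine methyltransferase Eef1akmt2 below. Rps24 read 7.87, 7.88, 8.10, 7.89, 7.73 and 8.05 on NP, NP-HS, NP-HS-HF, HP, HP-HS and HP-HS-HF. The 2 high fat arrays were the highest, and the fat difference was 0.27 ± 0.084 with a limma adjusted p of 0.934. Eif2s1, the subunit whose phosphorylation shuts down initiation, read 8.44, 8.40, 8.25, 8.43, 8.47 and 8.17 in the same order, lowest on the 2 high fat arrays. Its fat difference was -0.22 ± 0.084, and it was also the 1 member with an unadjusted p under 0.05 for sucrose and fat together. Eif4e3, an alternative cap-binding protein, had -0.25 ± 0.083 and Eef1akmt2 -0.25 ± 0.080 for fat.

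High sucrose, with fat low on both sides, gave medians of -0.023 for ribosomal proteins, -0.029 for initiation factors and -0.033 for elongation factors. In this comparison 45 of 124 members were above 0 (36.3%, against 49.9% of all probe sets). The widest differences were those of Rps27 (0.20), Eif2s2 (-0.19), Eif4e3 (0.16), Eif1ax (-0.16) and Rps3 (-0.15), and none had an unadjusted p under 0.05. The comparisons of high sucrose and of high sucrose with high fat share the low fat arrays. Within a protein level, 45 of 124 members were above 0 for NP-HS minus NP and 64 of 124 (51.6%) for HP-HS minus HP, where the median was 0.0084 over all members and 0.018 over ribosomal proteins. Without the NP array the fitted sucrose median was 0.023 for ribosomal proteins and 0.0084 for initiation factors.

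The other genes of translation and of its nutrient control were taken from lists by name, and 0 passed the adjusted test for protein in any list. Of the 59 measured ribosome biogenesis genes, 45 were above 0 and 14 below for protein, with a median of 0.058, and 6 had an unadjusted p under 0.05. Of all probe sets, 49.4% were above 0 and 8.71% had such a p, so the second count is near the background. Nop56, a core protein of the box C/D small nucleolar ribonucleoproteins, was higher by 0.27, 0.32 and 0.28 in the 3 backgrounds, a fitted 0.29 ± 0.064 with an adjusted p of 0.257. Myc, a transcription factor for ribosome biogenesis genes, was lower in each background, at -0.32, -0.33 and -0.27, with a fitted -0.31 ± 0.064 and an adjusted p of 0.238. Of 27 genes of the mTORC1 pathway, 9 were above 0 and 18 below. Bmt2, also known as SAMTOR, which reports S-adenosylmethionine to mTORC1, read 8.56, 8.43 and 8.64 on normal protein and 9.07, 9.05 and 9.02 on high protein. Its difference of 0.50 ± 0.074 had a limma unadjusted p of 0.000398 and an adjusted p of 0.124. Of 22 cytosolic aminoacyl-tRNA synthetase genes, 12 were above 0, and Eprs1 had 0.13. Of 22 other genes with start tracts or roles in termination, 13 were above 0, led by Dap (0.17). Of 68 mitochondrial ribosomal protein genes, 28 were above 0 and 40 below, with a median of -0.022, against 0.026 for the cytosolic ones. For fat added to sucrose, 43 of these 68 were above 0 and 25 below. Their median was 0.038, near the 0.045 of the cytosolic ones. On HP-HS-HF the mitochondrial ribosomal proteins had a median deviation of 0.0056 and the ribosome biogenesis genes 0.023.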

How the data were processed

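Per the submitters' processing notes, the authors summarised the arrays by RMA; its version is not given in the sources used here, and the deposited log2 values were used as they are. One label field names mice, but the organism and the growth protocol name rats, and rats were taken. Genes were named from the platform annotation (15310 probe sets with 1 symbol, 323 with several, 13581 unlisted). Of 124 members, 121 matched RefSeq by Entrez number. Pairwise array correlations were 0.9949 to 0.9964, and the number of arrays limits the precision.

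With limma 3.58.1 in R 4.3.3, an additive model of protein level and background (2 residual degrees of freedom) was fitted to 20450 probe sets. These had a mean above the 30th percentile (log2 5.14). In simulated data, with SDs drawn from the fit to all probe sets, 37% of protein changes of 0.5 on the log2 scale reached an adjusted p under 0.05 by limma. Of changes of 1, 96.4% did. The fitted protein differences of the members were all smaller than 0.5, the largest being 0.36 (Rps27). Changes of that size were not simulated, and the members' median residual SD was 0.059 against 0.086 for all probe sets. Such changes could be missed, at a rate that was not measured. A sign-flip permutation over 3 backgrounds cannot go below p = 0.25. Members and lists were chosen with earlier results of these data known. Named genes were the highest by absolute difference or moderated t per effect, the extremes of each array pair, the widest ranges, the regulators and 3 per list; genes outside this rule were named after their values were seen. Alternatives were other normalizations, filters, probe set choices and each array left out.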

Additional observations from a re-analysis of the deposited data

How the results depend on the processing

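The settings were no filter, a filter at the 50th percentile, quantile normalization, median centring and the mean of probe sets. With each, 0 of 124 members passed the adjusted test for any effect. For protein the count was also 0 with any 1 array left out. The protein differences of 11 genes were recomputed in all these ways and kept their sign. The genes were Rps27, Rps26, Eif4a2, Eif2b2, Rplp2, Eif1b, Rpl37a, Eef1g, Eif3a, Rpl7 and Rpsa. They had been picked as the highest by absolute protein difference or moderated t in the same arrays, so a kept sign is weak evidence. Single-gene fat and sucrose differences were not recomputed. Rps27 did not pass the filter at the 50th percentile and has no value there. An unadjusted p under 0.05 and a fold of 1.2 were alternatives chosen after seeing the data. By limma, 3 members had such a p for protein (8.71% of all probe sets did), 6 for fat (4.95%) and 1 for sucrose and fat together (5.18%). At 1.2-fold in place of 1.5-fold, 2 members differed for HP minus NP (12.4% of all probe sets did), 6 for HP-HS minus NP-HS (11.9%), 4 for HP-HS-HF minus NP-HS-HF (14.6%), 7 for NP-HS minus NP (9.54%), 3 for HP-HS minus HP (9.03%), 2 for NP-HS-HF minus NP-HS (9.71%), 7 for HP-HS-HF minus HP-HS (11.3%), 1 for NP-HS-HF minus NP (11.7%) and 1 for HP-HS-HF minus HP (11.9%). The elongation factor medians were -0.0263 for protein and -0.0512 for sucrose with the filter at the 50th percentile, and the fat median of initiation factors was 0.0016 after quantile normalization. Leaving out each array in turn gave, for protein, medians of -0.0004 to 0.047 for ribosomal proteins, -0.0076 to 0.0149 for initiation factors and -0.0236 to -0.022 for elongation factors. For sucrose it gave -0.0459 to 0.0228 for ribosomal proteins, -0.0473 to 0.0084 for initiation factors and -0.0556 to -0.0017 for elongation factors. For fat it gave 0.0095 (without HP-HS-HF) to 0.0941 (without NP-HS-HF) for ribosomal proteins, -0.019 to 0.0049 for initiation factors and -0.0119 to 0.061 for elongation factors. For sucrose and fat together the fitted median of ribosomal proteins was 0.030, with 49 of 70 above 0 (70.0%, against 48.8% of all probe sets). Leaving out each array gave -0.0026 (without HP-HS-HF) to 0.0826 (without NP) for ribosomal proteins. It gave -0.0377 to -0.0085 for initiation factors and -0.0354 to 0.0303 for elongation factors. The cause of these shifts was not tested. No paired analysis by replicate number was possible because the labels give none; the model has background as a term and so compares protein levels within a background.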
